A study of Mus musculus with 3 samples.

Results

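Genes for calcium-binding and calmodulin-linked proteins were followed through the perinatal development of SST+ neurons of the mouse neocortex (NCx), and all 10 of them were found among the 31053 genes of the count matrices. The list was set by gene name, with earlier results of these data known, and holds Pvalb, Calb1, Calb2, Necab1, Necab2, Ncald, Hpca, Hpcal1, Hpcal4 and Pcp4. The cells came from Sst-Cre; RCEloxP mice, in which Cre made from the Sst locus switches on a GFP reporter for good, so that a cell keeps GFP after Sst itself has gone quiet. The dissected NCx was dissociated, GFP+ cells were sorted, and 3' tag libraries of unique molecular identifiers (UMIs, each standing for 1 captured mRNA molecule) were made with the 10x Genomics system. There was 1 library for each of 3 stages, embryonic day (E) 16.5, postnatal day (P) 1 and P5, from 6, 3 and 3 pooled animals, respectively. All animals had this one genotype, and the labels name no treatment. With 1 library per stage there is no biological replicate, so no test between groups or stages was possible, no p-value is given, and every interval given is a 95% interval that covers counting error only.

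Calcium-binding proteins have long been used to sort cortical GABAergic neurons into classes. Parvalbumin (Pvalb), calbindin (Calb1) and calretinin (Calb2) are buffers that bind incoming calcium through EF-hand loops, and in the adult NCx Pvalb marks fast-spiking basket and chandelier cells, whereas Calb1 and Calb2 occur in sets of SST+ interneurons, including Martinotti cells (MCs). Hippocalcin (Hpca), its relatives Hpcal1 and Hpcal4, and neurocalcin delta (Ncald) are calcium sensors of the visinin-like family, which move to membranes when they bind calcium. Necab1 and Necab2 are neuronal EF-hand proteins that mark subsets of neurons, and Pcp4 is a small protein that binds calmodulin and sets how fast it exchanges calcium.

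The distinction shows in the coding sequences. The reference annotation (GENCODE M21, build GRCm38) was translated and searched for the 12-residue calcium loop of the EF-hand, and 9 of the 10 genes held at least 1 match. Calb2 had 5, Calb1 had 4, Ncald, Hpca, Hpcal1 and Hpcal4 had 3 each, Pvalb and Necab2 had 2 and Necab1 had 1, while Pcp4 had 0. Pcp4 instead held 1 match to an 11-residue pattern of the calmodulin-binding IQ motif, a short pattern that also matched once in Necab1. The first loop of 8 members is shown, 5′ to 3′ on the coding strand, because it shows how alike the sensors are whose counts are compared here. Capitals mark the codons of loop positions 1, 3, 5 and 12, whose side chains hold the calcium ion.
Pvalb: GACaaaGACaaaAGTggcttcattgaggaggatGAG
Calb1: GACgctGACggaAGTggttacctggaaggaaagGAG
Calb2: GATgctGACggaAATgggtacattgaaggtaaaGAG
Necab1: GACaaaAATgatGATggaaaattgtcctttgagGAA
Ncald: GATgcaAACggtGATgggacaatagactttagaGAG
Hpca: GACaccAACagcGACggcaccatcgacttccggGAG
Hpcal1: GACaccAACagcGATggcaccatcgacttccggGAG
Hpcal4: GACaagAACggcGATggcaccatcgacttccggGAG
On GRCm38 these loops lay at chr15:78202526-78202561 (minus strand) for Pvalb, chr15:37397183-37397218 (minus) for Ncald, chr4:129118490-129118525 (minus) for Hpca, chr12:17786387-17786422 (plus) for Hpcal1 and chr4:123189079-123189114 (plus) for Hpcal4. Those of the other 3 genes were split over an exon junction, at chr4:15881468-15881477 and chr4:15881958-15881983 (plus) for Calb1, chr8:110156971-110156996 and chr8:110168044-110168053 (minus) for Calb2, and chr4:15111277-15111302 and chr4:15140225-15140234 (minus) for Necab1. The loops of Hpca and Hpcal1 shared 35 of 36 bases, those of Hpcal1 and Hpcal4 shared 33 and those of Calb1 and Calb2 shared 29. Over the whole protein, Hpca and Hpcal1 were identical at 93.8% of aligned residues, Ncald and Hpca at 88.1%, Hpca and Hpcal4 at 69.3% and Calb1 and Calb2 at 60.8%. These identities are of coding sequence, whereas the libraries counted the 3' ends of transcripts.

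Pcp4 is the member with the largest differences between cell groups, and its whole coding sequence of 186 bases without the stop codon is short enough to print. It spans 3 coding exons on the plus strand at chr16:96467782-96525514, and capitals mark the codons of the IQ motif positions 1, 2, 6 and 11, in the stretch at chr16:96525464-96525496.
Pcp4: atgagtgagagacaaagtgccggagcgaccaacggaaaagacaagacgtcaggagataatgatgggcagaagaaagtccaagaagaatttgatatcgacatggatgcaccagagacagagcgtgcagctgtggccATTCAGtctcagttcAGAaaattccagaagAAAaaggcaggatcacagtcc
The Pcp4 gene overlaps Igsf5 on the same strand, and Igsf5 had 0 UMIs in all 3 cell groups of every library. Hpca overlaps Tmem54 and Necab1 overlaps 2 predicted genes, in each case on the opposite strand, and Ncald overlaps 11 genes with Gm or Rik names on either strand, and how reads were divided between overlapping genes was not tested.

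Cells with more than 700 genes and under 10% mitochondrial UMIs were kept, which left 3952 of 4478, 2501 of 4440 and 2980 of 3406 cells at E16.5, P1 and P5, with a median of 5577, 3293 and 3936 UMIs per cell, respectively. The share kept was 88.3%, 56.3% and 87.5%, and the median mitochondrial share of the kept cells was 4.05%, 5.92% and 4.21%. Between 1 and 6 cell barcodes were shared by any pair of libraries. Kept cells were put into groups by their UMIs of 3 genes. Nos1 cells held at least 1 UMI of Nos1, the neuronal nitric oxide synthase that together with Chodl marks SST+ long-range projection (LRP) neurons, and numbered 67, 434 and 547 at E16.5, P1 and P5, respectively. Sst-high cells had at least 5 Sst UMIs and no Nos1, and numbered 1920, 757 and 896. Sst-silent cells had at least 1 UMI of Lhx6, a transcription factor of the medial ganglionic eminence lineage, with no UMI of Sst or Nos1, and numbered 774, 465 and 545. These are gates on counts and not cell types, and a shallow cell can miss a gate by chance.

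Sst was present in 82.1%, 90.8% and 96.0% of Nos1 cells, and Chodl in 22.4%, 51.6% and 60.0%. A UMI of at least 1 of 6 excitatory-neuron markers (Neurod6, Neurod2, Neurod1, Slc17a7, Slc17a6 and Tbr1) was found in 16 of 67, 22 of 434 and 4 of 547 Nos1 cells (23.9%, 5.07% and 0.731%) at the 3 stages, and the summed level of the 6 markers in Nos1 cells was 591, 158 and 6.11 CPM (UMIs of the gene per 1000000 UMIs of the group), against 7.15, 6.53 and 1.81 CPM in Sst-high cells. For Pcp4, Calb1 and Hpcal1 at E16.5 and for Necab1 at P1, values of Nos1 cells are also given without those cells. In Sst-silent cells the 5 basket-cell markers (Pvalb, Tac1, Syt2, Plcxd3 and Erbb4) summed to 529.5, 681 and 513 CPM against 254, 252 and 191 CPM in Sst-high cells, and the 6 markers of caudal ganglionic eminence interneurons (Prox1, Adarb2, Vip, Htr3a, Lamp5 and Cck) to 55.1, 80.8 and 112 CPM against 23.3, 29.4 and 38.7 CPM. Most of the first sum was Erbb4, with 418, 555 and 339 CPM in Sst-silent and 199, 212 and 118 CPM in Sst-high cells, while Pvalb was at 0 in Sst-silent cells at E16.5 and P1 and Syt2 at 1.05, 1.25 and 6.23 CPM. Most of the second was Cck, with 45.1, 75.8 and 108 CPM in Sst-silent cells. Vip was at 0 there in all 3 libraries, Lamp5 at E16.5 and P1, and Adarb2 and Htr3a at P5. The part of other interneurons in the Sst-silent values was not tested.

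The members differed widely in level at every stage. In Sst-high cells at E16.5, Calb1 led with 368 CPM, ahead of Pcp4 with 95.6 CPM and Ncald with 53.6 CPM, and each of the other members was below 20 CPM. By P5 the order in the same group was Ncald (396 CPM), Pcp4 (380.1 CPM), Calb1 (229.9 CPM), Hpca (101 CPM) and Hpcal4 (99.5 CPM), followed by Necab2, Calb2, Hpcal1, Necab1 and Pvalb. The intervals of Ncald and Pcp4 (379 to 414 and 363 to 398 CPM) and those of Hpca and Hpcal4 (91.9 to 109.7 and 90.9 to 109 CPM) overlapped at P5. Each molecule gives 1 tag at its 3' end, so CPM was set side by side between genes without scaling for length. At an equal depth of 2000 UMIs per cell, Sst-high cells showed on average 0.544, 0.758 and 1.58 of the members at the 3 stages, and the share of cells with none was 56.0%, 45.4% and 16.9%, respectively.

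**Figure D1:**
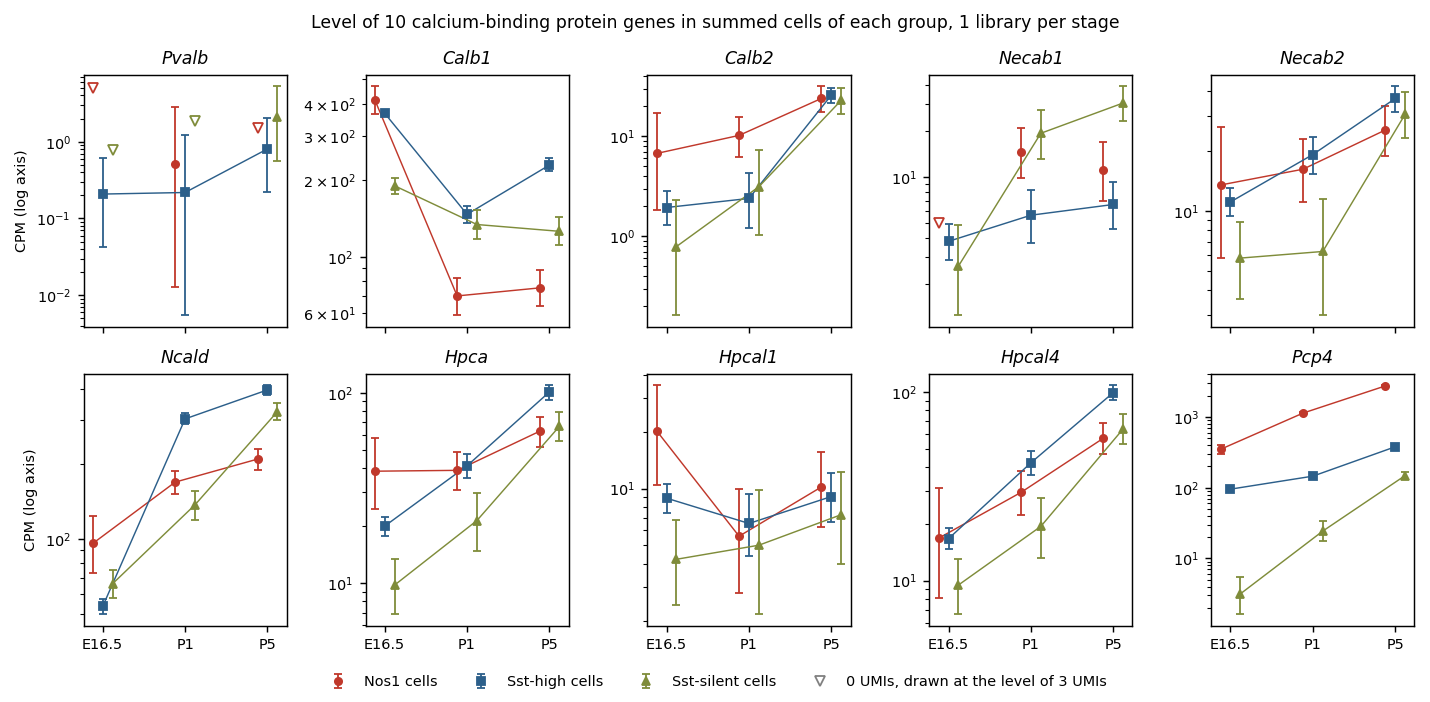
CPM (log axis) of each member in Nos1 cells (circles), Sst-high cells (squares) and Sst-silent cells (triangles) at E16.5, P1 and P5, with 95% Poisson intervals for counting error as bars. Open triangles pointing down stand at the level of 3 UMIs where a group had 0. Pcp4 runs in the order Nos1, Sst-high and Sst-silent cells at every stage, Calb1 in Nos1 cells is at 416 CPM at E16.5 and 70.1 CPM at P1, and the 3 sensors Ncald, Hpca and Hpcal4 stand highest at P5 in all 3 groups.

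Pcp4 separated the 3 groups in the same order at each stage. In Nos1 cells it stood at 350.1 CPM at E16.5 (208 UMIs, interval 304 to 401), 1137 CPM at P1 (2240 UMIs, 1091 to 1185) and 2759 CPM at P5 (5416 UMIs, 2686 to 2833). In Sst-high cells the values were 95.6, 146 and 380.1 CPM, and in Sst-silent cells 3.16, 24.4 and 149 CPM. No 2 intervals of the 3 groups overlapped at any stage. The log2 ratio of Nos1 over Sst-high cells, computed on CPM plus 1, was 1.86 (interval 1.65 to 2.08) at E16.5, 2.95 (2.83 to 3.08) at P1 and 2.86 (2.78 to 2.94) at P5, that is 3.63-, 7.72- and 7.24-fold. Intervals of log2 ratios, here and below, are of the ratio without the added 1. The study itself lists Pcp4 among genes of LRP neurons, chosen on these samples, so the direction is not independent evidence.

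The share of cells with a Pcp4 UMI had the same order as the level. It was 43.3%, 68.2% and 92.3% in Nos1 cells, 12.8%, 21.9% and 49.6% in Sst-high cells and 1.29%, 3.23% and 19.3% in Sst-silent cells at E16.5, P1 and P5, respectively. The groups differed in depth. The median was 7863, 3704 and 3073 UMIs in Nos1 cells, 6457, 4557 and 5542 in Sst-high cells and 4979.5, 3086 and 3316 in Sst-silent cells. The Sst-silent shares given above are not matched for depth. At 2000 UMIs per cell the shares became 23.1%, 64.6% and 87.7% in Nos1 cells (intervals 13.5 to 35.2%, 59.4 to 69.6% and 84.1 to 90.7%), and 6.34%, 12.8% and 35.2% in Sst-high cells (5.27 to 7.54%, 10.2 to 15.7% and 31.9 to 38.7%). Thinning left out 2, 78 and 133 Nos1 cells and 58, 154 and 110 Sst-high cells as too shallow. The postnatal Nos1 cells were shallower than the Sst-high cells and had Pcp4 more often. Excitatory neurons gated from the same sort, with at least 2 Neurod6 UMIs and none of Gad1, Gad2 or Lhx6, had a Pcp4 UMI in 8 of 31, 2 of 20 and 3 of 13 cells (25.8%, 10.0% and 23.1%) at median depths of 11905, 5642 and 4954 UMIs. Some excitatory neurons make Pcp4, so these shares are no clean measure of free RNA, and its part in the low shares of Sst-silent cells was not tested. The level of Pcp4 in these gated cells was 408, 61.0 and 103 CPM at the 3 stages, on 151, 8 and 6 UMIs. At E16.5 that is above the 350.1 CPM of Nos1 cells. A Nos1 UMI was present in 11, 6 and 0 of the gated cells, so the gate overlaps the Nos1 group at E16.5 and P1.

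**Figure D2:**
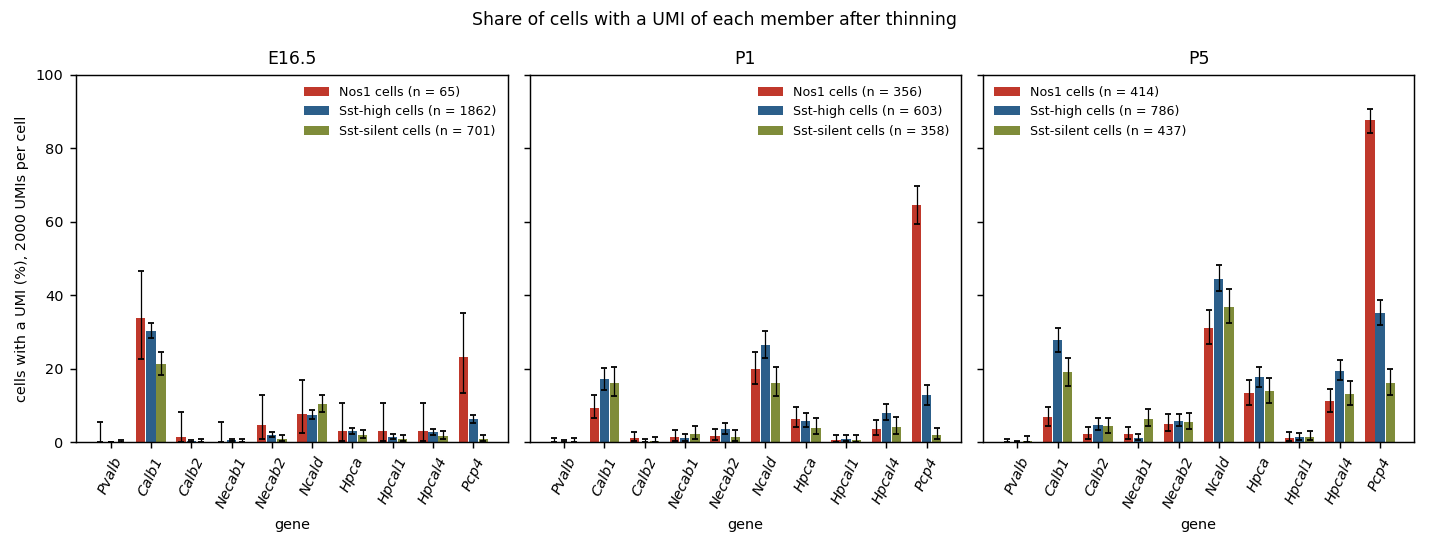
Share of cells (%) with at least 1 UMI of each member after thinning to 2000 UMIs per cell, in Nos1, Sst-high and Sst-silent cells at each stage, with exact Clopper-Pearson 95% intervals as bars and the number of cells in the legend. Pcp4 in Nos1 cells is at 23.1% at E16.5 and 87.7% at P5, Ncald is the most widely detected EF-hand gene at P5 in all 3 groups, and Pvalb stays near 0.

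Within Nos1 cells the level of Pcp4 went with the number of Nos1 UMIs, most clearly at P1. The 126 P1 cells with a single Nos1 UMI held 151 CPM of Pcp4 (interval 122 to 184), which overlaps the Sst-high level, whereas the 33 cells with 2 held 545 CPM, the 130 cells with 3 to 9 held 1124 CPM and the 145 cells with 10 or more held 2045 CPM (1946 to 2148). At P5 the 81 cells with 1 Nos1 UMI held 587 CPM, and the 3 higher bins lay between 2902 and 3337 CPM. In the 237 cells with 10 or more Nos1 UMIs, 100.0% had a Pcp4 UMI. With at least 3 Nos1 UMIs the log2 ratio of Pcp4 to Sst-high cells was 2.00, 3.54 and 3.06 at the 3 stages. At E16.5 there was no such order: the bins held 269, 569.7, 289 and 621 CPM, and only 16 cells had 3 or more Nos1 UMIs. Without the cells that carried an excitatory marker, the E16.5 level was 461 CPM (397 to 532) in 51 cells.

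Calb1 was lower in postnatal Nos1 cells than in Sst-high cells. At E16.5 the intervals of the 2 groups overlapped, with 416 CPM (interval 365 to 471) in Nos1 cells and 368 CPM (359 to 379) in Sst-high cells. At P1 Nos1 cells had 70.1 CPM (58.9 to 82.8) against 147 CPM (136 to 159), and at P5 75.4 CPM (63.7 to 88.6) against 229.9 CPM (217 to 244), log2 ratios of -1.06 and -1.60. At 2000 UMIs per cell, 9.27% of Nos1 cells and 17.1% of Sst-high cells had Calb1 at P1, and 6.76% against 27.7% at P5. Calb1 ran against the Nos1 count in every library. From cells with 1 Nos1 UMI to cells with 10 or more it stood at 597, 372, 141 and 38.8 CPM at E16.5, at 128, 102, 49.0 and 29.5 CPM at P1 and at 342, 74.9, 29.8 and 18.8 CPM at P5. With at least 3 Nos1 UMIs the log2 ratio to Sst-high cells was -1.72, -1.99 and -3.28 at E16.5, P1 and P5, so at E16.5 the direction depends on the cells with 1 or 2 Nos1 UMIs. The 16 E16.5 Nos1 cells with an excitatory marker held 57.2 CPM of Calb1 and the other 51 held 587 CPM, and without those 16 the log2 ratio of Calb1 was 0.67 in place of 0.17. The excitatory gated cells held 2, 2 and 0 Calb1 UMIs in 31, 20 and 13 cells.

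**Figure D3:**
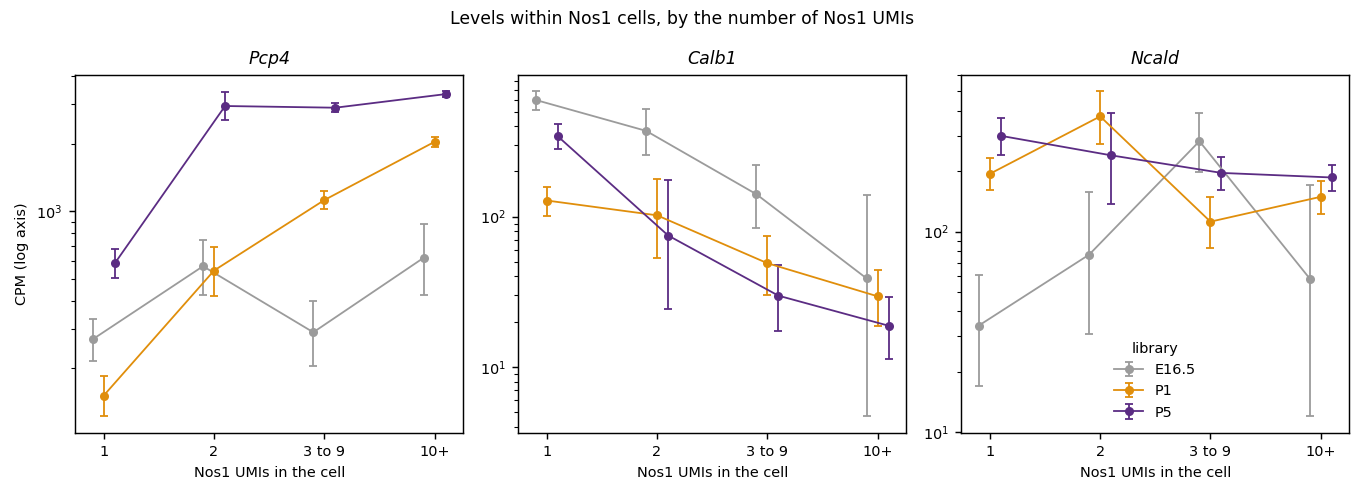
CPM (log axis) of Pcp4, Calb1 and Ncald in Nos1 cells split by the number of Nos1 UMIs per cell (1, 2, 3 to 9, 10 or more) in each library, with 95% Poisson intervals for counting error. At P1 the lowest and highest bins hold 151 and 2045 CPM of Pcp4 and 128 and 29.5 CPM of Calb1, and Ncald shows no common order.

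Calb2 was low before P5. In Sst-high cells it had 1.94 CPM at E16.5 on 28 UMIs, 2.39 CPM at P1 on 11 UMIs and 25.8 CPM at P5 on 128 UMIs in 82 cells, and the P5 level was 22.9 CPM in Sst-silent and 23.9 CPM in Nos1 cells, with overlapping intervals. The P5 over P1 log2 ratio was 2.98 (interval 2.54 to 4.47) in Sst-high cells and 2.53 in Sst-silent cells. In the excitatory gated cells 1, 0 and 0 UMIs were counted. In Nos1 cells at P1 its 10.2 CPM came from 20 UMIs in 6 cells, and no UMI fell in the 145 cells with 10 or more Nos1 UMIs. The study lists Calb2 as an MC marker, from these samples.

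Pvalb was all but absent. Over all kept cells of the E16.5, P1 and P5 libraries it had 3, 2 and 22 UMIs, and 0 of 547 Nos1 cells at P5 held a UMI, which by a limit of 3 counts allows a share of cells with a UMI of up to 0.548% at a median depth of 3073 UMIs. The 22 UMIs at P5 were divided among 4 in Sst-high cells, 4 in Sst-silent cells, 11 in cells with 1 to 4 Sst UMIs and 3 in cells with none of the gating genes. Sst-silent cells had 2.08 CPM (interval 0.566 to 5.32) and Sst-high cells 0.806 CPM (0.220 to 2.06), a difference that was not detectable at this depth. No UMI was seen in the excitatory gated cells of any library.

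Necab1 was the single member with more transcript in Sst-silent than in Sst-high cells by over 2-fold, and this held at both postnatal stages. It had 19.4 CPM (interval 13.2 to 27.6) against 5.66 CPM (3.70 to 8.29) at P1 and 30.6 CPM (23.3 to 39.5) against 6.65 CPM (4.58 to 9.34) at P5, log2 ratios of 1.62 and 2.05. At E16.5 it stood at 2.63 and 3.82 CPM, with overlapping intervals. Excitatory gated cells held far more, 206 CPM at P1 and 189 CPM at P5 (27 and 11 UMIs), and excitatory markers summed to 27.6 and 8.83 CPM in Sst-silent cells against 6.53 and 1.81 CPM in Sst-high cells. The part of such cells in the Necab1 level of Sst-silent cells was not tested. In Nos1 cells at P1, 22 of the 29 Necab1 UMIs lay in the 22 cells with an excitatory marker (112 CPM) and 7 in the other 412 (3.95 CPM), so the ratio to Sst-high cells, 1.24, turned to -0.43 without those 22 cells. At E16.5 Nos1 cells had 0 Necab1 UMIs, and the level of 3 UMIs there, 5.05 CPM, is above the Sst-high level, so no fold is given.

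Necab2 had a different course from its paralog, with which it shares 43.9% of aligned residues. It was at 11.1, 19.2 and 36.7 CPM in Sst-high cells at E16.5, P1 and P5, at 13.5, 16.2 and 25.5 CPM in Nos1 cells and at 5.80, 6.26 and 30.6 CPM in Sst-silent cells. The Sst-silent level at P1 came from 10 UMIs in 10 cells (interval 3.00 to 11.5 CPM), below that of Sst-high cells (15.4 to 23.6 CPM), and by P5 the intervals of these 2 groups overlapped.

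Ncald had the largest E16.5 to P1 ratio of the 4 sensors in Sst-high cells. In Sst-high cells it was at 53.6 CPM at E16.5 (772 UMIs, interval 49.9 to 57.5), 303 CPM at P1 (1394 UMIs, 288 to 319.7) and 396 CPM at P5 (1968 UMIs, 379 to 414), and the P1 over E16.5 log2 ratio was 2.48 (2.37 to 2.63). Postnatal Nos1 cells had less, 169 CPM at P1 and 209 CPM at P5, log2 ratios of -0.84 (-1.02 to -0.67) and -0.92 (-1.08 to -0.77) that stayed short of 2-fold. The E16.5 value of 95.9 CPM in Nos1 cells hung on 1 cell with 33 of the 57 UMIs, which carried an excitatory marker. Leaving out the top cell of each group turned the E16.5 ratio from 0.83 to -0.28. Sst-silent cells held 66.1, 137 and 324 CPM, slightly above Sst-high cells at E16.5 and below them at P1 and P5.

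Hpca and Hpcal4 ran close together in level in Sst-high and Sst-silent cells. They lie on different parts of chromosome 4 and differ in sequence more than Hpca and Hpcal1 do. In Sst-high cells Hpca was at 19.9, 41.3 and 101 CPM and Hpcal4 at 16.7, 42.2 and 99.5 CPM at E16.5, P1 and P5. In Sst-silent cells Hpca was at 9.75, 21.3 and 66.5 CPM and Hpcal4 at 9.48, 19.4 and 63.9 CPM, and their intervals overlapped at every stage in both groups. In 786 thinned Sst-high cells at P5, 26 held both, where independent detection gave 27.1. In Nos1 cells at E16.5 Hpca was at 38.7 CPM and Hpcal4 at 16.8 CPM, on 23 and 10 UMIs. Both genes were lower in Nos1 than in Sst-high cells at P5, with 62.7 CPM of Hpca and 57.0 CPM of Hpcal4 (log2 ratios of -0.67 and -0.79). Hpcal1, the nearest paralog of Hpca, stayed between 6.53 and 9.07 CPM in Sst-high cells with intervals of the stage ratios that included no difference, and at E16.5 its 20.2 CPM in Nos1 cells came from 12 UMIs, 7 of them in 1 cell.

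The members were then read against all genes. They were chosen with earlier results of these data known, so their counts and medians beside those of all genes are descriptions only. A gene was counted when its ratio was 2-fold or more in either direction with at least 20 UMIs over both groups. Between Nos1 and Sst-high cells, 4 of 9 measured members passed at E16.5, where 12.9% of 12070 genes did, 4 of 9 at P1 (6.32% of 11419 genes) and 2 of 9 at P5 (9.82% of 11529 genes). At E16.5 these were Pcp4, Calb2 and Hpcal1 on the higher side, and Necab1 on the lower. Necab1, with 0 UMIs in Nos1 cells, was counted only through the 1 CPM added to both sides, and its interval included no difference. Calb2 rested on 4 UMIs in 3 Nos1 cells, and its interval (-0.18 to 3.31) also included no difference. Those of P1 were Pcp4, Calb2 and Necab1, which were higher, and Calb1, which was lower. Pcp4 (higher) and Calb1 (lower) made up the P5 count. The median log2 ratio of the measured members was 0.83, -0.19 and -0.51, beside medians over all genes of -0.03, -0.02 and -0.07. The E16.5 median is the ratio of Ncald itself, which was -0.28 without the top cell of each group. With 10 CPM added in place of 1, a single member, Pcp4 at E16.5 and P1, was left in each of those 2 counts.

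Between Sst-silent and Sst-high cells, 1 of 9 members passed at E16.5 (6.16% of genes), 5 of 8 at P1 (9.34%) and 2 of 9 at P5 (5.91%). Pcp4 was lower in all 3, by log2 ratios of -4.54, -2.54 and -1.34, Necab1 was higher at P1 and P5, and Necab2, Ncald and Hpcal4 were lower at P1. The member medians were -0.83, -1.0 and -0.29, beside 0.02, -0.01 and 0.01 over all genes. The P1 count was 2 after thinning to equal depth, where Pcp4 still had a log2 ratio of -3.34.

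**Figure D4:**
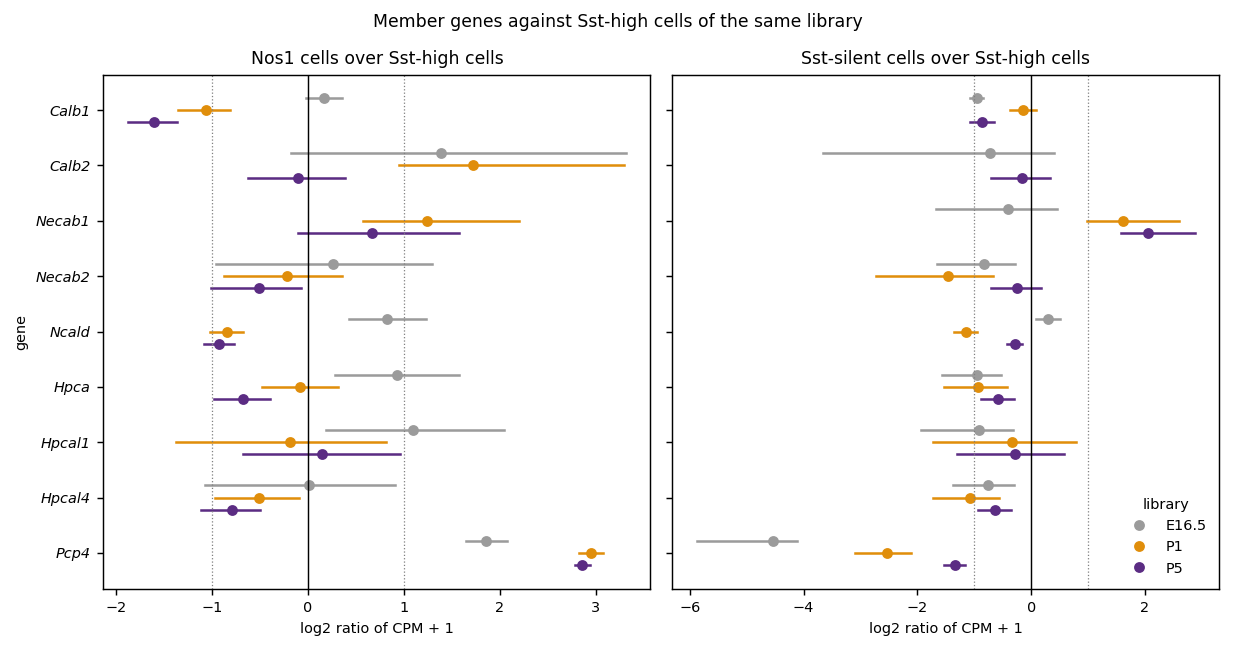
Log2 ratio of CPM + 1 of each measured member in Nos1 cells (left) and Sst-silent cells (right) over Sst-high cells of the same library, with 95% counting intervals as lines, dotted lines at 2-fold and 1 color per library; Necab1 at E16.5 (0 UMIs in Nos1 cells) is not drawn on the left. The intervals are of the CPM ratio without the added 1. Pcp4 lies at 1.86 to 2.95 in Nos1 cells and at -4.54 to -1.34 in Sst-silent cells, Calb1 lies below 0 in postnatal Nos1 cells, and Necab1 lies at 1.62 and 2.05 in postnatal Sst-silent cells.

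Across stages, 7 of the 8 member ratios past 2-fold in Sst-high cells were higher in the later library, with Hpca and Hpcal4 counted in both steps. From E16.5 to P1, 4 of 9 passed 2-fold, beside 16.8% of 12607 genes (1541 higher and 581 lower). Ncald, Hpcal4 and Hpca were higher (log2 ratios of 2.48, 1.29 and 1.02) and Calb1 was lower (-1.32, interval -1.44 to -1.21). From P1 to P5, 4 of 9 passed, beside 18.7% of 12028 genes (962 higher and 1289 lower). All 4 were higher, namely Calb2, Pcp4, Hpca and Hpcal4 with log2 ratios of 2.98, 1.37, 1.26 and 1.22. The median over all genes was 0.16 in the first step and -0.11 in the second, while that of the members was 0.61 and 0.90. In Nos1 cells Pcp4 had a log2 ratio of 1.70 from E16.5 to P1 and of 1.28 from P1 to P5, and Calb1 had -2.55 and 0.10. In Sst-silent cells Pcp4 had 2.61 and 2.56. The make-up of the Nos1 gate also differed between libraries. Of its 67, 434 and 547 cells in stage order, 38, 126 and 81 held 1 Nos1 UMI. Those cells had 269, 151 and 587 CPM of Pcp4 and 597, 128 and 342 CPM of Calb1. Cells with 10 or more, only 4 at E16.5, had 621, 2045 and 3337 CPM of Pcp4 and 38.8, 29.5 and 18.8 CPM of Calb1. An excitatory marker was found in 23.9%, 5.07% and 0.731% of Nos1 cells. How far this make-up enters the Nos1 stage ratios was not tested. Stage, library and any difference in preparation or sequencing between libraries cannot be told apart here, and the 3 groups of a stage share 1 library. In the study's methods, myelin was removed on Percoll at P1 and P5 only, and trypsin and DNase were added at P5.

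Sst-high cells are themselves a mix of MCs and other interneurons, and the members were set against 17 subtype genes by comparing cells with and without a UMI of each. Of 126 pairs of member and gene with a value, 11 differed by 2-fold or more in the same direction wherever both sides had enough cells, and 0 of these could be read in all 3 libraries. That is 8.73% of the pairs, beside 6.40% of 182286 pairs over all genes, so the number of pairs is close to the background and the pairs are given as values only. Pcp4 with Cbln4, a secreted synapse organizer, was the only one read in 2 libraries: cells with Cbln4 had 296 CPM of Pcp4 against 83.8 CPM at E16.5 (log2 ratio 1.81) and 364 against 123 CPM at P1 (1.56). At P5, cells with Myh8 had 421 CPM of Calb1 against 201 CPM (1.07, interval 0.87 to 1.27), cells with Pdyn had 128 against 259 CPM (-1.01) and the 37 cells with Crh had 29.3 against 238 CPM (-2.98). The same 37 cells had 97.6 CPM of Pcp4 against 392 CPM. The other 6 pairs, which joined Necab1 to Pdyn and Chrna2, Calb2 to Chrna2 and Tac1, Necab2 to Chrna2 and Pcp4 to Tac1, were read in 1 library each, and 5 of the 6 rested on 3 or fewer UMIs on one side.

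Pcp4 also differed with Chodl outside the Nos1 gate. Sst-high cells with a Chodl UMI, which lack a Nos1 UMI by definition, held 198, 627 and 955 CPM of Pcp4 at E16.5, P1 and P5 (81, 56 and 31 cells), against 90.2, 109.8 and 360.3 CPM in those without. The intervals were apart at each stage, 544 to 719 against 100.1 to 120.2 CPM at P1. Among Nos1 cells at P1, the 98 with Dach1 and no Lypd1 held 2866 CPM of Pcp4 and the 55 with Lypd1 and no Dach1 held 858 CPM, a log2 ratio of 1.74 (1.55 to 1.93). Hpca differed the same way, 65.5 against 18.6 CPM on 28 and 6 UMIs, while Calb1, Ncald and Hpcal4 had intervals that included no difference. Dach1 and Lypd1 are the genes by which the study divides LRP neurons.

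The genes whose detection was most like that of each member were ranked in cells with and without a UMI of it, by the lower of the P1 and P5 log2 ratios with 10 CPM added, over 8308 genes in Sst-high cells. Nr2f2, an orphan nuclear receptor, came first for Calb1 (1.58 at P1 and 1.52 at P5) and for Hpca (1.10 and 0.76) and at rank 3 for Hpcal4 (0.46 and 0.53). Maml3 (1.48 and 1.47), Ifitm10, Npr3, Shisa9 and Kcnip4 led for Ncald. Npr3, a natriuretic peptide receptor, also came first for Necab2 (0.88 and 0.90), ahead of Ptprk, Htr1b, Gdf10 and Cck. For Pcp4 the list was Arpp21 (1.03 and 1.09), Gpx3, Sdk2, Rgs8 and Sphkap in Sst-high cells, whereas in Nos1 cells it was Nos1 itself, which set the group, Syt6, Fam46a, Plpp3 and Dach1, with log2 ratios of 1.86 or more at P1 over 5515 genes. Cells with a UMI of a member were deeper than those without, 8798 against 3475 median UMIs for Calb1 at P1, and both sets shared 1 library.

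Members were also counted together in single thinned cells, and a few of the pairs are given. In 786 thinned Sst-high cells at P5, Ncald was in 350, Pcp4 in 277 and Calb1 in 218, and both Ncald and Pcp4 were in 134 cells, where independent detection gave 123. Calb1 and Ncald shared 101 cells (97.1 if independent), and Calb1 and Pcp4 shared 92 (76.8). At E16.5 Calb1 and Pcp4 shared 30 Sst-high cells (35.8 if independent), and at P1 they shared 19 (13.2). Calb1 with Necab2 at E16.5 shared 22 cells of 1862 where independence gave 11.2. At P1 they shared 2 of 603 where it gave 3.59, and at P5 17 of 786 where it gave 12.8. In 414 thinned Nos1 cells at P5, 17 cells held both Calb1 and Pcp4, where independence gave 24.6.

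A list of 48 other EF-hand and calmodulin-linked genes, all present in the files, gives the wider family. Between Nos1 and Sst-high cells 8 were 2-fold higher and 2 lower of 38 measured at E16.5, 3 and 0 of 37 at P1, and 1 and 3 of 38 at P5, with medians of 0.21, -0.06 and -0.10, where 12.9%, 6.32% and 9.82% of all genes were 2-fold apart in either direction. S100a10, a partner of annexin that does not bind calcium itself, was the 1 gene higher in all 3 libraries, with 43.8 against 7.15 CPM, 44.7 against 14.8 CPM and 121 against 38.5 CPM. Between Sst-silent and Sst-high cells 1, 1 and 2 were higher and 8, 10 and 2 lower, of 38, 35 and 38 measured, where 6.16%, 9.34% and 5.91% of all genes were 2-fold apart. S100a10 was lower in all 3, and Kcnip2, a potassium-channel-binding sensor named here after its values were seen, was higher in all 3, with 189 against 28.8 CPM at P5. From E16.5 to P1 in Sst-high cells 11 of 39 were higher and 0 lower, and from P1 to P5 11 of 38 were higher and 1 lower. Over all genes 16.8% and 18.7% were 2-fold apart. Those were 1541 higher and 581 lower in the first step and 962 and 1289 in the second.

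Outside the 3 groups, 9 cells of the P5 library stood far from the rest in Pcp4. They were picked after the values were seen, as the cells with a UMI of both Pcp2 and Car8, genes known from cerebellar Purkinje cells. They held 762 of the 9451 Pcp4 UMIs of all kept cells at P5, a level of 20559 CPM, together with 2644 CPM of Calb1 (98 UMIs), 4 of the 22 Pvalb UMIs, 3373 CPM of Itpr1 and 1592 CPM of Foxp2. None lay in the Nos1, Sst-high or Sst-silent group of any library, so no value of those groups includes them. Without them, Pcp4 in P5 cells with none of the 3 gating genes was at 339 CPM in place of 1072 CPM, and Pvalb there was at 0 UMIs.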

How the data were processed

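The deposited files hold raw UMI counts per gene and cell, which the authors made with Cell Ranger on GRCm38, with versions 3.1.0, 3.0.2 and 3.1.0 for E16.5, P1 and P5 per the labels. Stage, library and software version cannot be told apart. Cells with more than 700 genes and under 10% mitochondrial UMIs were kept. These are limits the study also set, whereas its limits on aligned reads and on total UMIs and its removal of genes were not applied. No doublet caller was run. UMIs were summed over the cells of each group and divided by the group's total to give CPM, with exact Poisson intervals. Shares of cells carry exact Clopper-Pearson intervals and ratios the conditional exact interval of a pair of Poisson counts, all at 95%. Log2 ratios were taken on CPM + 1. Where a group had 0 UMIs, the floor was 3 UMIs over the group, and the limit of a share of 0 was 3 cells of the group. For shares at equal depth, each cell was thinned to 2000 UMIs and shallower cells were left out.

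Members and gene lists were chosen with earlier results of these data known. Every member is named. Subtype genes are named where a member was 2-fold apart in the same direction in each library that could be read, with at least 30 cells on either side. The 5 genes most like a member were the highest by the lower of the P1 and P5 log2 ratios (10 CPM added) between cells with and without it, among genes with at least 50 UMIs in each library. Scripts were tested on simulated data. Coding sequences came from GENCODE M21. Each count was recomputed under the other settings that apply to it, 97 recounts in all, some of them chosen after the data were seen. Analyses used Python 3.11.15, numpy 2.4.6, scipy 1.17.1, pandas 2.3.3, matplotlib 3.10.9 and biopython 1.88.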

Additional observations from a re-analysis of the deposited data

Results flagged for a closer look

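Ncald and Hpca differed from Sst-high cells in opposite directions in different libraries, with counting intervals that left out no difference. The difference between libraries was not tested, since each stage has 1 library. In Nos1 cells the log2 ratio of Ncald was 0.83, -0.84 and -0.92 at E16.5, P1 and P5, and without the cell with the most Ncald UMIs in each group the E16.5 ratio was -0.28. In the same cells the log2 ratio of Hpca was 0.93 at E16.5, on 23 UMIs in Nos1 cells, and -0.67 at P5. At E16.5 excitatory gated cells held 27.0 CPM of Hpca on 10 UMIs, against 19.9 CPM in Sst-high and 38.7 CPM in Nos1 cells. Of these 31 gated cells, 11 also held a Nos1 UMI and so belong to the Nos1 group as well. A value without cells with an excitatory marker is not given for Hpca. In Sst-silent cells the log2 ratio of Ncald was 0.30, -1.15 and -0.29 at E16.5, P1 and P5.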

How the results depend on the processing

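No paired analysis was possible because each stage has 1 library and the labels give no replicate numbers. The cell groups of a stage were compared within their library. Of 97 recomputed counts of members 2-fold apart, 78 stayed within 1.5 times the reported count. Among 719 log2 ratios of single members, 633 kept their value within counting error and 30 had the opposite sign, 3 of them with a reported ratio of 2-fold or more. The others include Ncald in Nos1 cells at E16.5, which went from 0.83 to -0.28 without the top cell of each group, and Calb1 there, which went from 0.17 to -1.72 with at least 3 Nos1 UMIs. The count between Nos1 and Sst-high cells at E16.5, 4, became 1 with 10 CPM added, 2 after thinning to 2000 UMIs, 7 with at least 3 Nos1 UMIs, 2 without the cell with the most UMIs of the member in each group and 2 where the interval of the ratio also had to leave out 1. At P1, 4 became 1 with 10 CPM added and 2 with over 1000 genes and under 5% mitochondrial UMIs, with the mean of per-cell CPM and after thinning. That stricter cell filter left 222 of 434 Nos1, 184 of 757 Sst-high and 102 of 465 Sst-silent cells at P1. At P5 it left 641 of 896 Sst-high cells. Between Sst-silent and Sst-high cells, 1 at E16.5 became 4 with at least 10 Sst UMIs, 5 with at least 2 Lhx6 UMIs and 2 without the top cell, and 5 at P1 became 2 with 10 CPM added, 3 under the stricter cell filter, 3 without the 5% of cells with the most UMIs and 2 after thinning. In Sst-high cells the 4 from E16.5 to P1 became 2 with 10 CPM added and 2 without the 5% of cells with the most UMIs, and the 4 from P1 to P5 became 7 under the stricter filter. The log2 ratio of Hpcal1 in Nos1 cells at E16.5 was -0.73 without cells with an excitatory marker, and that of Necab1 at P1 was -0.43 without them and -0.63 with at least 3 Nos1 UMIs. The causes were not tested. The top-cell, excitatory-marker, interval and Chodl alternatives were chosen after seeing the data. Of 180 recomputed shares of cells, 101 left their counting interval, 71 of them after thinning. Depth limits Pvalb in every group, Calb2 at P1 and Necab1 in E16.5 Nos1 cells, each with 20 or fewer UMIs. In Nos1 and Sst-silent cells, counts were as low for Calb2 at E16.5 and for Hpcal1 at every stage. The same was true of Necab2 and Hpcal4 in E16.5 Nos1 cells. It was also true of Necab1 and Pcp4 in E16.5 Sst-silent cells and of Necab2 in P1 Sst-silent cells.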
